A study of Homo sapiens with 5 samples.

Results

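Ectonucleotide pyrophosphatases and genes of lysophospholipid signalling were examined in 5 lines derived from HMLE, human mammary epithelial cells immortalised in culture. Of 9 listed genes, 8 had a probe set carrying their symbol alone (ENPP1, ENPP2, ENPP3, ENPP4, ENPP5, PLPP3, S1PR1 and LPAR3), out of 14912 genes named in all. The only probe set of PLPP1 carried 2 symbols, so PLPP1 was left out. RNA of each line was hybridised to 1 Affymetrix array. One line served as the control with LACZ, a reporter gene from bacteria. The remaining 4 each overexpressed a transcription factor that drives the epithelial to mesenchymal transition (EMT), namely FOXQ1, SNAI1, ZEB2 or TWIST1. All lines shared the HMLE background and were untreated, and RNA was taken from nearly confluent cultures. The sources used here do not give the promoter that drove each factor, nor whether a line was 1 clone or a pool. With 1 array per line no replicate error could be estimated, so no test was made and no p-value is given.

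The ENPP family are enzymes at the cell surface or secreted from the cell. ENPP1 and ENPP3 cut extracellular nucleotides, and ENPP1 releases AMP and pyrophosphate from ATP and also breaks down the cyclic dinucleotide cGAMP. ENPP2, autotaxin, is the secreted member that makes lysophosphatidic acid (LPA) from lysophosphatidylcholine. LPA and the related lipid sphingosine 1-phosphate (S1P) act through G protein-coupled receptors, among them LPAR3 for LPA and S1PR1 for S1P, and surface lipid phosphate phosphatases such as PLPP3 remove their phosphate.

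Levels are on the deposited scale, which was read as log2, and a difference is always a factor array minus the LACZ array unless another pair is named. Where 4 differences are given without array names, they follow the order FOXQ1, SNAI1, TWIST1, ZEB2. A gene was called when the difference reached 2-fold (1 on the log2 scale) with the brighter array at or above a level floor of 4.72, the median of the mean levels of all named genes. Values below the floor have no reliable order, and no detection calls were used. Over all named genes the median difference was 0 on FOXQ1, -0.09 on SNAI1, 0 on ZEB2 and 0 on TWIST1. FOXQ1, TWIST1 and ZEB2 each had their highest level on the array of the line labelled for them (6.23, 9.96 and 7.39). The SNAI1 gene was not analysed here. FOXQ1 was below the floor on every other array, but TWIST1 and ZEB2 were more than 2-fold above LACZ on all 4 factor arrays. The TWIST1 gene was at 5.55 on LACZ against 8.2 to 9.96 across the factor arrays, and the ZEB2 gene at 3.57 against 6.23 to 7.39. Each stood under 2-fold above its next highest array, which was SNAI1 for TWIST1 (9.18) and TWIST1 for ZEB2 (7.03). All 6 epithelial markers examined, among them EPCAM and ESRP1, were above the floor on LACZ and lower on all 4 factor arrays. In RNA from whole cultures, fewer cells of a type and less RNA per cell cannot be told apart.

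Of the 8 genes, 6 were called on at least 1 factor array, against 23.3% of all named genes. The 8 genes had been listed with earlier results of these data known, so their share is a description. Every share of named genes is over all 14912, of which 8492 reached the floor on any array, as a call requires. Only 7790 of the 14912 were protein-coding, as all 8 listed genes are. ENPP2 and PLPP3 were higher than LACZ on all 4 factor arrays, where 2.17% of named genes were, and LPAR3 was lower on all 4, where 2.28% were. ENPP1 was higher on 3 arrays and far highest on FOXQ1. S1PR1 was moderately higher on 3 arrays, ENPP5 lower on 3 from a level close to the floor, and ENPP3 and ENPP4 were below the floor on every array. The median difference over the 8 genes was 0.28 on FOXQ1, 1.14 on SNAI1, 0.34 on ZEB2 and 0.56 on TWIST1, medians that combine genes of opposite direction.

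**Figure D1:**
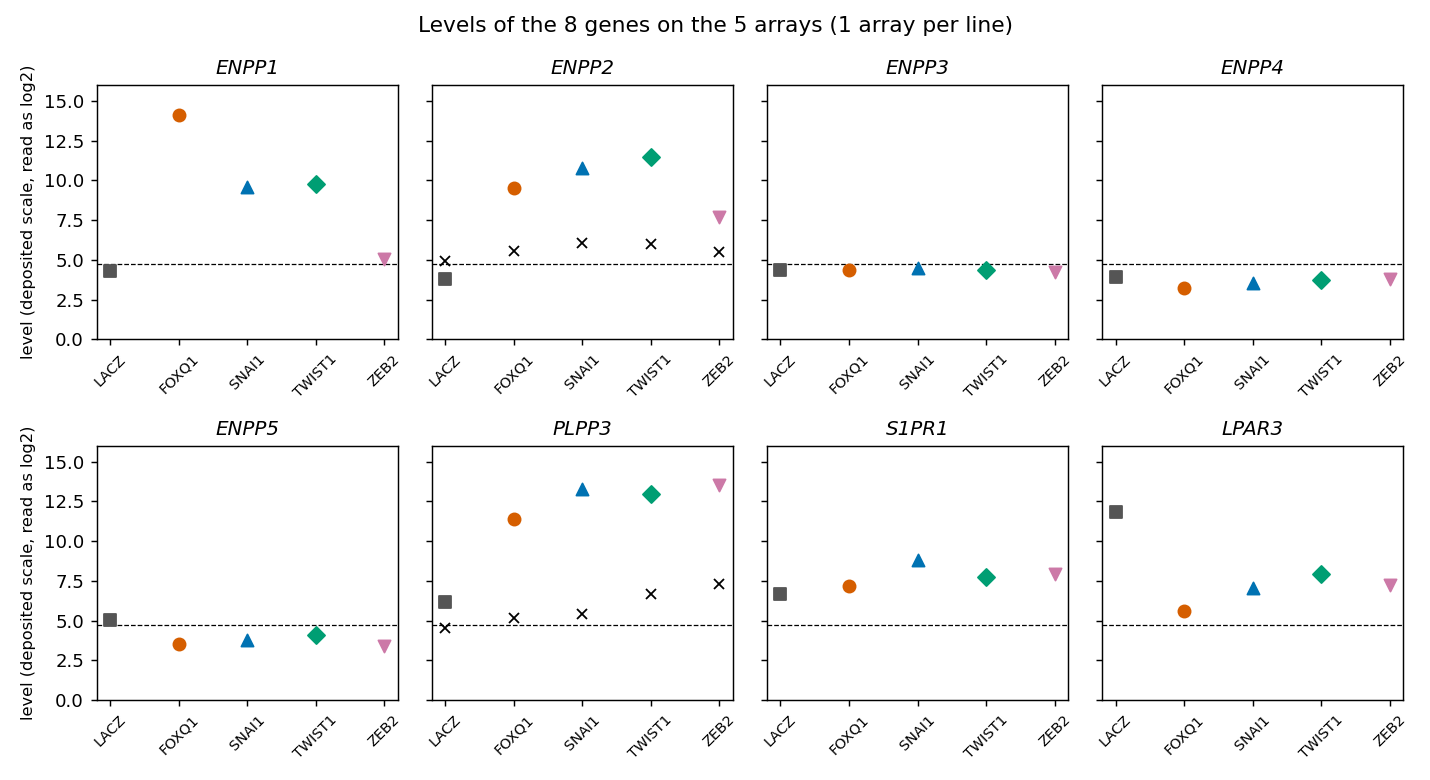
Level of each of the 8 genes (vertical axis, deposited scale read as log2) on the LACZ, FOXQ1, SNAI1, TWIST1 and ZEB2 arrays (horizontal axis, 1 point per array). Crosses are the weaker second probe set of ENPP2 and the probe set with the older symbol PPAP2B in the PLPP3 panel, and the dashed line is the floor of 4.72; ENPP1 stands highest on FOXQ1 at 14.1, and LPAR3 highest on LACZ at 11.83.

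ENPP1 (GRCh38.p14 chromosome 6, 131808020 to 131895155), the nucleotide pyrophosphatase, had a level of 4.27 on LACZ, 14.1 on FOXQ1, 9.55 on SNAI1, 5.07 on ZEB2 and 9.78 on TWIST1. The FOXQ1 array was far above the rest, the SNAI1 and TWIST1 arrays lay together in the middle, and the ZEB2 array was close to LACZ, which was below the floor. The differences were 9.83 on FOXQ1, 5.28 on SNAI1, 0.8 on ZEB2 and 5.51 on TWIST1, and the ZEB2 value was under 2-fold. With LACZ raised to the floor they were 9.38 (FOXQ1), 4.83 (SNAI1), 5.06 (TWIST1) and 0.35 (ZEB2). ENPP1 was 4.32 higher on FOXQ1 than on TWIST1 (2.33% of named genes were at least 2-fold higher in that pair) and 4.48 higher on SNAI1 than on ZEB2 (1.35% in that pair). SNAI1 and TWIST1 differed by 0.23, under 2-fold. ENPP1 was thus at least 2-fold above LACZ and above each other factor array on FOXQ1, as were 1.2% of named genes.

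The profile most like that of ENPP1 was that of SDC2, a cell surface heparan sulfate proteoglycan, at a root mean square distance of 0.93 between levels centred on each gene's own mean over the 5 arrays. SDC2 differed from LACZ by 9.75 on FOXQ1, 4.85 on SNAI1, 2.92 on ZEB2 and 6.51 on TWIST1. MEST, a gene known for its imprinting, followed at 1.43 and the adhesion receptor ADGRL3 at 1.48. Like ENPP1, ADGRL3 was below the floor on LACZ, at 4.3. Over 5 arrays such likeness is a description, and the points share the same LACZ array.

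ENPP2 (chromosome 8, 119557086 to 119673390), autotaxin, had a level of 3.78 on LACZ, 9.51 on FOXQ1, 10.8 on SNAI1, 7.71 on ZEB2 and 11.44 on TWIST1. It was below the floor on LACZ alone, highest on TWIST1 and SNAI1, and lowest of the factor arrays on ZEB2. The differences were 5.73, 7.02, 7.66 and 3.93 in the array order FOXQ1, SNAI1, TWIST1, ZEB2. They were 4.79, 6.08, 6.72 and 2.99 with LACZ raised to the floor. ENPP2 had a second probe set, whose levels of 4.94 on LACZ, 5.55 on FOXQ1, 6.06 on SNAI1, 5.48 on ZEB2 and 6.02 on TWIST1 kept all factor arrays above LACZ within a much narrower span. Its differences were 0.61 (FOXQ1), 1.12 (SNAI1), 1.08 (TWIST1) and 0.54 (ZEB2), so the size of the ENPP2 difference depended on the probe set, and by the second alone FOXQ1 and ZEB2 were under 2-fold. Which parts of the transcript the probe sets read is not known here.

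On the main probe set ENPP2 was 3.73 higher on TWIST1 than on ZEB2, and 2.79% of named genes were at least 2-fold higher in that pair. TWIST1 and SNAI1, adjacent in the order of ENPP2 levels, differed by 0.64, under 2-fold. The genes with the most similar profile were PTGFR, the receptor of prostaglandin F2 alpha (distance 0.8), IL1R1, the interleukin 1 receptor (0.96), and the collagen gene COL6A3 (0.97). Like ENPP2, PTGFR was below the floor on LACZ, at 4.35. Autotaxin is also known as a product of adipocytes. Of 3 adipocyte markers, ADIPOQ was below the floor on all 5 arrays, FABP4 was called on FOXQ1 and TWIST1 at 2.37 and 2.25 from a LACZ level below the floor (1.07 and 0.95 with LACZ raised to it), and PPARG, a nuclear receptor of fat cell differentiation, was higher on all 4 arrays, at 5.77, 2.98, 4.91 and 3.92 in the array order FOXQ1, SNAI1, TWIST1, ZEB2. The summed level of the 3 was 13.75 on LACZ against 17.72 to 22.05 on the factor arrays, and the part of these genes in the ENPP2 result was not tested. Of 5 measured fibroblast markers, between 2 and 4 were called higher on each factor array, with summed levels of 40.36 on LACZ against 48.18 to 55.38 on the factor arrays. COL1A2 was higher on all 4 of these, FN1 on SNAI1, TWIST1 and ZEB2 but not FOXQ1, and PDGFRA on TWIST1 alone, at 4.04. DPT was called on TWIST1 at 4.27 and on FOXQ1 at 1.07 (0.98 with LACZ raised to the floor), and FAP on no array. The part of fibroblast genes was not tested either.

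ENPP3 (chromosome 6, 131637302 to 131747410), a nucleotide pyrophosphatase known as a surface marker of basophils and mast cells, lay between 4.25 and 4.46 on the 5 arrays. ENPP4 (chromosome 6, 46129989 to 46146688), a surface enzyme that cuts diadenosine polyphosphates, lay between 3.21 and 3.94. Both stayed below the floor on every array, so neither gave a difference that can be read. The 3 basophil and mast cell markers FCER1A, CPA3 and KIT were likewise below the floor on all 5 arrays.

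ENPP5 (chromosome 6, 46159185 to 46170980), a less studied member of the family, had a level of 5.03 on LACZ, 3.51 on FOXQ1, 3.75 on SNAI1, 3.37 on ZEB2 and 4.12 on TWIST1. Only LACZ reached the floor, by a margin of 0.31, and the factor arrays were all below it. The differences were -1.52 on FOXQ1, -1.28 on SNAI1, -1.66 on ZEB2 and -0.91 on TWIST1, past 2-fold on FOXQ1, SNAI1 and ZEB2. With levels below the floor set to the floor each difference was -0.31, so the calls of ENPP5 rest on values whose order is not measured. The nearest profiles, OSTF1 (distance 0.06), SNORA26 (0.09) and the pseudogene WWP1P1 (0.12), share that limit on the side of ENPP5.

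PLPP3 (chromosome 1, 56494761 to 56579563), the lipid phosphate phosphatase, had a level of 6.19 on LACZ, 11.36 on FOXQ1, 13.3 on SNAI1, 13.53 on ZEB2 and 12.97 on TWIST1. It was above the floor on all 5 arrays, with LACZ far below the others and FOXQ1 lowest of the factor arrays. The differences were 5.17 on FOXQ1, 7.11 on SNAI1, 7.34 on ZEB2 and 6.78 on TWIST1. Among genes at or above the floor on both arrays of a pair, where differences can be ranked, that of PLPP3 was number 5 from the top of 6805 on SNAI1 and number 6 of 6961 on ZEB2. By the same probe set it was number 8 of 6931 on TWIST1 and number 29 of 6914 on FOXQ1. PLPP3 was 1.61 higher on TWIST1 than on FOXQ1, and 5.39% of named genes were at least 2-fold higher in that pair. On this probe set SNAI1, TWIST1 and ZEB2 lay within 0.56 of each other, under 2-fold.

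A further probe set carried PPAP2B, an older symbol of PLPP3, and was not counted among its probe sets. Its level was 4.56 on LACZ, 5.15 on FOXQ1, 5.43 on SNAI1, 7.28 on ZEB2 and 6.65 on TWIST1. All factor arrays were again above LACZ, but by 0.59 (FOXQ1), 0.87 (SNAI1), 2.09 (TWIST1) and 2.72 (ZEB2), so FOXQ1 and SNAI1 were under 2-fold there. The mean of both probe sets gave differences of 2.88, 3.99, 4.44 and 5.03 in the same order. The profiles most like that of PLPP3 were those of TOX, a nuclear protein (distance 0.35), DOCK10 (0.37), and CDH18, a cadherin (0.39). TOX and DOCK10 were below the floor on LACZ (4.57 and 3.87), so their distances rest partly on values with no reliable order.

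S1PR1 (chromosome 1, 101236899 to 101242313), the receptor of S1P known for its role in endothelial cells and in the exit of lymphocytes from lymph nodes, had a level of 6.64 on LACZ, 7.19 on FOXQ1, 8.84 on SNAI1, 7.94 on ZEB2 and 7.77 on TWIST1. SNAI1 was the highest, FOXQ1 was nearest to LACZ, and TWIST1 and ZEB2 differed by 0.17. The differences were 0.55 on FOXQ1, 2.2 on SNAI1, 1.3 on ZEB2 and 1.13 on TWIST1, and those on TWIST1 and ZEB2 were close to the 2-fold line: neither was called at 3-fold. S1PR1 was 1.65 higher on SNAI1 than on FOXQ1, and 3.83% of named genes were at least 2-fold higher in that pair. Of 5 endothelial markers none was called on any factor array, and KDR, TEK and SELE were below the floor on all 5. The summed level of the 5 was 19.86 on LACZ against 18.88 to 20.88 on the factor arrays. None of 5 leukocyte markers was called either, and CD2, CD14, CSF1R and CD48 were below the floor on all 5 arrays. The summed level of the 5 leukocyte markers was 19.96 on LACZ against 18.75 to 19.42. Both sums, endothelial and leukocyte, are made mostly of values below the floor, so their order between arrays is not reliable. The 3 nearest profiles were those of the pseudogene RNU4-29P (distance 0.18) and of ADAM32 (0.21) and NUDT17 (0.23), all of them below the floor on LACZ, FOXQ1 and TWIST1, so these distances rest on values with no reliable order.

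LPAR3 (chromosome 1, 84811602 to 84893206), an LPA receptor that also takes part in embryo implantation in mice, had a level of 11.83 on LACZ, 5.63 on FOXQ1, 7.07 on SNAI1, 7.22 on ZEB2 and 7.94 on TWIST1. All 5 arrays were above the floor, with LACZ far above the rest and FOXQ1 the lowest. The differences were -6.2 on FOXQ1, -4.76 on SNAI1, -4.61 on ZEB2 and -3.89 on TWIST1. Among genes at or above the floor on both arrays the difference was number 19 from the bottom of 6914 on FOXQ1 and number 19 of 6961 on ZEB2. It was number 27 of 6805 on SNAI1 and number 26 of 6931 on TWIST1. LPAR3 was at least 2-fold lower on FOXQ1 than on LACZ and than on each other factor array, as were 1.53% of named genes, and SNAI1, the next lowest, was 1.44 above FOXQ1. SNAI1 and ZEB2 differed by 0.15 and ZEB2 and TWIST1 by 0.72, both under 2-fold. The 6 epithelial markers moved the same way, with a summed level of 75.03 on LACZ against 26.16 to 31.17 on the factor arrays, and their part in the LPAR3 result was not tested. The nearest profiles were those of GJB5, a connexin of epithelial gap junctions (distance 0.46), KIAA0040 (0.46) and TNFRSF21, a death receptor (0.5). KIAA0040 was below the floor on FOXQ1, at 3.51. GJB5 differed by -4.86, -4.43, -3.48 and -4.41 in the array order FOXQ1, SNAI1, TWIST1, ZEB2.

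**Figure D2:**
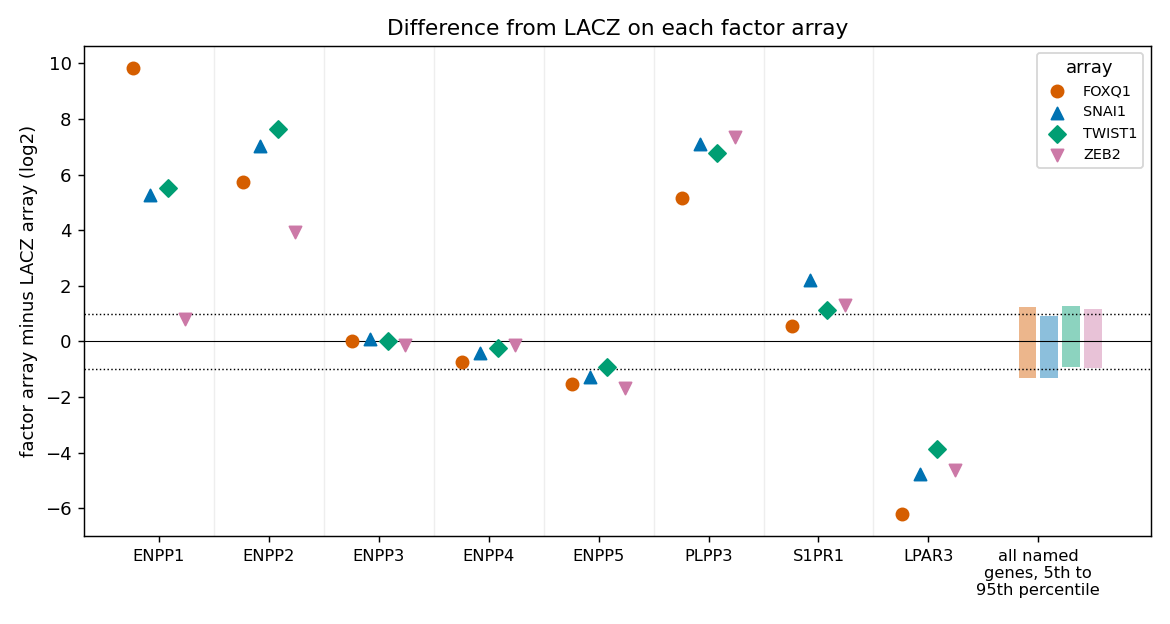
Difference of each factor array from the LACZ array (vertical axis, log2) for each of the 8 genes (horizontal axis), 1 point per factor array; bars at the right span the 5th to the 95th percentile of the differences of all 14912 named genes on the same arrays, and dotted lines mark 2-fold. ENPP2 and PLPP3 lie above and LPAR3 below the upper and lower lines on all 4 arrays, while ENPP1 runs from 0.8 on ZEB2 to 9.83 on FOXQ1.

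Set side by side, the FOXQ1 array had the highest ENPP1 and, among the factor arrays, the lowest PLPP3, S1PR1 and LPAR3. The ZEB2 array had the highest PLPP3 and, among the factor arrays, the lowest ENPP1 and ENPP2. ENPP1 and, by its main probe set alone, ENPP2 were at least 2-fold lower on ZEB2 than on each other factor array. Of named genes, 3.89% were at least 2-fold lower on ZEB2 than on FOXQ1, 1.35% than on SNAI1 and 2.79% than on TWIST1. The share lower in all of these pairs together was not computed. By main probe sets, TWIST1 and SNAI1 differed by under 2-fold for every one of the 8 genes except S1PR1. S1PR1 was 1.07 higher on SNAI1, where 1.35% of named genes were at least 2-fold higher than on TWIST1. The PPAP2B probe set of PLPP3 was at 6.65 on TWIST1 and 5.43 on SNAI1, a gap past 2-fold. Counted against LACZ, 3 genes were higher and 2 lower on FOXQ1, 4 higher and 2 lower on SNAI1, 4 higher and 1 lower on TWIST1 and 3 higher and 2 lower on ZEB2. The shares of all named genes were 6.55% higher and 6.96% lower on FOXQ1, 4.26% and 8.01% on SNAI1, 7.28% and 4.22% on TWIST1, and 6.4% and 4.32% on ZEB2. All 4 comparisons share the LACZ array.

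Promoter sequence is shown for ENPP1 and PLPP3, with large positive differences, and for LPAR3, lower on all 4 factor arrays. Each line gives the 250 bases before the RefSeq gene start in GRCh38.p14, 5′ to 3′ on the gene's own strand. Motif letters were searched on both strands. CAGGTG, which reads CACCTG on the other strand, is the E-box core known to be bound by SNAI1 and ZEB2, CANNTG is the general E-box of helix-loop-helix factors such as TWIST1 and includes CAGGTG, and TGTTTA, with TAAACA as its other strand, is a forkhead core. Capitals mark CAGGTG or TGTTTA on either strand. The ENPP1 window is chr6:131807770-131808019 on the plus strand, that of PLPP3 is chr1:56579564-56579813 on the minus strand, and that of LPAR3 is chr1:84893207-84893456 on the minus strand.
ENPP1: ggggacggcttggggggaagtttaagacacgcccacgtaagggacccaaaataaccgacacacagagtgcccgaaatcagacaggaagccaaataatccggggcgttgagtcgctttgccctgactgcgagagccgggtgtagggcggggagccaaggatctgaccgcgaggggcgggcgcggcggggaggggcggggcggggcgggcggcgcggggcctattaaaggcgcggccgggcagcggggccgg
PLPP3: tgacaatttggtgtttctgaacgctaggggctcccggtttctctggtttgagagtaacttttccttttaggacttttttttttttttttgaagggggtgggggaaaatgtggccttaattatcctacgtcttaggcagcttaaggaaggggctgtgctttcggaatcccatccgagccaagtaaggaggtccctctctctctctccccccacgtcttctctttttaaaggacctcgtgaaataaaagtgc
LPAR3: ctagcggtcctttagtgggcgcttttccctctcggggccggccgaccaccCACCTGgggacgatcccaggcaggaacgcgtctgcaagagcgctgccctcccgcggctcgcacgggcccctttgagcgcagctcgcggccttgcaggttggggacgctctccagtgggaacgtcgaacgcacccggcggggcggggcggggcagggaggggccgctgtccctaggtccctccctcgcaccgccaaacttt

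In these windows LPAR3 held 1 CAGGTG core, on the reverse strand, with its first letter 200 bases before the start. ENPP1 and PLPP3 held none of the letters searched, which says only that they are not in these 250 bases. Over the 6 of the 8 genes with a promoter in the RefSeq table, CAGGTG was found in 1, CANNTG in 4 and TGTTTA in 1, the last in ENPP3. Among 27305 promoters of the same length, 17.5% held CAGGTG, 62.2% CANNTG and 11.1% TGTTTA. The windows also differed in composition: that of ENPP1 was 68.8% G or C with 28 CG pairs, that of LPAR3 71.2% with 27, and that of PLPP3 46% with 7, beside medians of 58% and 11 over all promoters. A match is a description of letters and not of binding.

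Genes beside the called members on the chromosome were compared next, taking the 3 nearest measured protein-coding genes on each side. ENPP1 lies beside CCN2, a matricellular protein known as a target of the coactivators YAP and TAZ, with 53 kb between them. CCN2 was higher on all 4 factor arrays, by 4.94, 4.89, 5.23 and 4.83 in the array order FOXQ1, SNAI1, TWIST1, ZEB2, so unlike ENPP1 it was as high on ZEB2 as on the others. MOXD1, a monooxygenase-like protein, 400.9 kb away, was higher on FOXQ1, SNAI1 and TWIST1 (2.49, 1.55 and 2.55) and was below the floor on LACZ and ZEB2. With LACZ raised to the floor its difference on SNAI1 was 0.85, under 2-fold. STX7, a syntaxin, was called on SNAI1 at -1.06 and on ZEB2 at -1, and the SNAI1 call was lost under quantile, median and loess normalization. On the other side, OR2A4 and CTAGE9 were lower on all 4 arrays. Both lie within the span of ENPP3 and belong to gene families with closely similar copies, so their signals are uncertain, and ENPP3 itself, 60.6 kb from ENPP1, was below the floor.

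LPAR3 lies between SSX2IP and the cation channel genes MCOLN2 and MCOLN3. All 3 of these neighbours were lower than LACZ on all 4 factor arrays, as were 2.28% of named genes. MCOLN3, 124.9 kb from LPAR3, was at 8.46 on LACZ against 3.25 to 4.31 on the factor arrays. MCOLN2, at 32.4 kb, differed by -2.69, -2.64, -1.44 and -1.76, and SSX2IP, a centrosomal and junctional protein, by -2.62, -2.48, -1.45 and -1.99. MCOLN2 and MCOLN3 were below the floor on every factor array, so their order among these arrays is not measured. With those levels raised to the floor the difference on each array was -1.3 for MCOLN2 and -3.74 for MCOLN3. With the floor at percentile 75 MCOLN2 was not called on any array. The other 3 neighbours of LPAR3 were not called on any array. Beside PLPP3, 1 of 6 neighbours was called on any array, where 23.3% of all named genes were. It was TMEM61, 1502.5 kb away, at -1.88 on FOXQ1 (-0.82 with that level raised to the floor). The nearest measured gene on that side, USP24, lay 1279.4 kb from PLPP3. PRKAA2, FYB2, C8A and BSND were below the floor throughout.

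**Figure D3:**
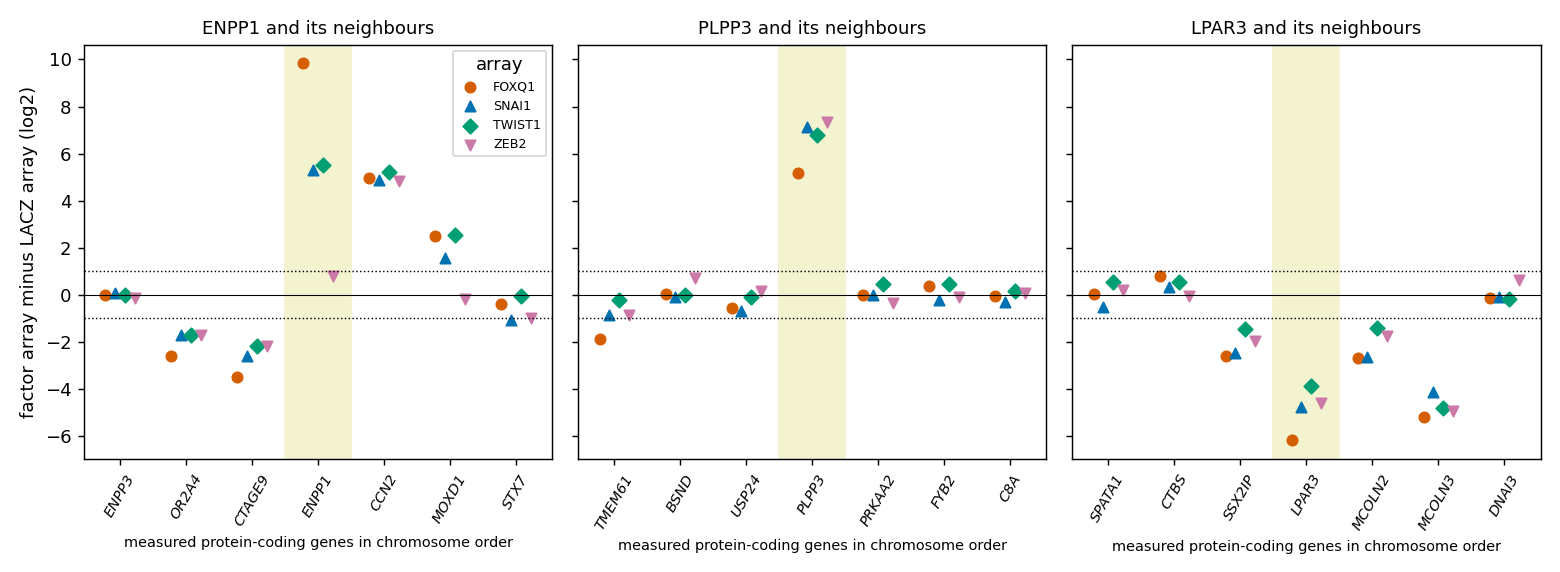
Difference of each factor array from LACZ (vertical axis, log2) for ENPP1, PLPP3 and LPAR3 (shaded) and the 3 nearest measured protein-coding genes on each side, in chromosome order (horizontal axis, not to distance); dotted lines mark 2-fold. CCN2 beside ENPP1 is near 5 on all 4 arrays, SSX2IP, MCOLN2 and MCOLN3 are below the lower line with LPAR3, and of the neighbours of PLPP3 only TMEM61 on FOXQ1, at -1.88, is past 2-fold.

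Other genes of these pathways were taken from 7 lists. Among enzymes that release lysophospholipids or related lipids, 8 of 10 were measured and ENPP2 was the 1 called higher. Lower calls numbered 1 on FOXQ1, 3 on SNAI1, 2 on ZEB2 and 3 on TWIST1. Of all named genes, 6.96% were lower on FOXQ1, 8.01% on SNAI1, 4.32% on ZEB2 and 4.22% on TWIST1. The list medians were -0.53 (FOXQ1), -0.65 (SNAI1), -0.66 (TWIST1) and -0.52 (ZEB2). PLA2G7, which hydrolyses platelet-activating factor, was at 5.86 on LACZ against 3.02 to 3.54 on the factor arrays. LIPH, which makes LPA from phosphatidic acid, was at 5.75 on LACZ and differed by -1.46, -1.29 and -1.29 on SNAI1, TWIST1 and ZEB2. PLA2G4A, a cytosolic phospholipase, was called on TWIST1 at -1.36 and PLA2G2A, a secreted one, on SNAI1 at -1.02. With the floor at percentile 75 none of these lower calls was left.

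Of 13 LPA and S1P receptors only S1PR1 and LPAR3 were measured, so the other receptors were not analysed here. Of 15 lipid phosphate phosphatases and related genes 7 were measured, and besides PLPP3 the list held 1 further gene called higher and 1 called lower. Thus 3 of the 7 were called on at least 1 array, beside 23.3% of all named genes. PLPP5 was at 7.51 on LACZ, 8.19 on FOXQ1, 8.41 on SNAI1, 10.74 on ZEB2 and 8.52 on TWIST1. It was called on TWIST1, at 1.01, and on ZEB2, at 3.23. PLPP3 was also highest on ZEB2, but by its main probe set under 2-fold above SNAI1 and TWIST1. ACP6, a mitochondrial LPA phosphatase, was called only on SNAI1, at -1.12.

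Of the 19 genes of S1P metabolism and export, 9 were measured and 7 reached the floor on any array. Of the 9 measured, 6 were called on at least 1 array, for a list chosen with earlier results known. Among all named genes, which also include genes below the floor, 23.3% were. DEGS1, the desaturase that completes ceramide, was higher on all 4, at 1.55, 1.08, 1.74 and 1.6 in the array order FOXQ1, SNAI1, TWIST1, ZEB2. SGPP2, an S1P phosphatase, was lower on all 4, at -1.84, -2.09, -1.56 and -1.57, and so was the transporter ABCG2, at -1.77, -2.17, -1.94 and -1.72. Both were below the floor on every factor array, and with levels below the floor set to the floor neither was called on any array. MFSD2A, a transporter of lysophosphatidylcholine, was at 10.02 on LACZ and called only on FOXQ1, at -2.8. The ceramide synthases CERS6 and CERS2 were called on 1 array each, at 1.12 on FOXQ1 and at 1.15 on TWIST1.

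Enzymes of LPA and phosphatidic acid inside the cell went both ways, with 18 of 21 measured and 15 reaching the floor on any array. Of the 18 measured, 12 were called on at least 1 array, again beside 23.3% of all named genes. The acyltransferase GPAT4, which makes LPA from glycerol 3-phosphate, was higher on all 4 arrays, at 1.86, 2.01, 1.77 and 2.53. GPAT3, of the same reaction, was lower on all 4, at -2.56, -3.08, -2.56 and -2.71, and was below the floor on each factor array. MBOAT1, a lysophospholipid acyltransferase, was lower on all 4, at -2.23, -2.01, -1.82 and -1.62. The phospholipase D gene PLD1 was called higher on FOXQ1, TWIST1 and ZEB2 (2.94, 2.73 and 1.13), and the diacylglycerol kinase DGKI, at 2.9 on LACZ, on SNAI1, TWIST1 and ZEB2 (3.35, 2.98 and 2.72). With LACZ raised to the floor DGKI on ZEB2 was 0.9, under 2-fold. With the median of probe sets PLD1 lost its call on ZEB2. PLD5 was lower on FOXQ1, SNAI1 and TWIST1 (-3.19, -2.89 and -1.78) and differed by 0.69 on ZEB2. AGPAT4, an acyltransferase that makes phosphatidic acid from LPA, was called higher on FOXQ1 and TWIST1 (1.17 and 1.99, the first not with the median of probe sets), and the related AGPAT5 lower on FOXQ1 (-1.37). DGKB and DDHD2 were called higher on 1 array each (FOXQ1 at 1.51 and ZEB2 at 1.14, the first from a LACZ level of 3.38 and only 0.17 with LACZ raised to the floor), LPCAT1 lower on SNAI1 (-1.46, not with the median of probe sets) and LPGAT1 lower on FOXQ1 and SNAI1 (-1.33 and -1.26).

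Of 22 genes of extracellular nucleotides and pyrophosphate 16 were measured, 7 of them below the floor on all 5 arrays. On FOXQ1, 3 were higher and 4 lower, where 6.55% and 6.96% of all named genes were. The higher ones were ENPP1, AK5 at 8.01 and DPP4, a surface peptidase that binds adenosine deaminase, at 1.66 (not called with the median of probe sets). The lower ones were ENPP5, NT5E at -3.61, the phosphate transporter SLC20A1 at -2.33 and the nucleoside transporter SLC29A1 at -2.07. NT5E, which turns AMP into adenosine, was at 14.53 on LACZ, 10.92 on FOXQ1, 14.68 on SNAI1, 14.85 on ZEB2 and 15.27 on TWIST1. The array with the highest ENPP1 thus had the lowest NT5E, but NT5E was not called on SNAI1 or TWIST1, where ENPP1 was also higher. AK5, an adenylate kinase that acts inside the cell, was the 1 gene of this list higher on all 4 arrays, with 6 on SNAI1, 5.14 on ZEB2 and 5.25 on TWIST1. ANKH, which carries pyrophosphate and ATP out of cells, was called only on TWIST1, at 1.14, and SLC20A2, a phosphate transporter, was lower on SNAI1 and TWIST1, at -1.99 and -1.09. The alkaline phosphatase genes ALPL, ALPP, ALPG and ALPI were below the floor on all 5 arrays.

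Of 17 purine receptors and genes of cyclic dinucleotide sensing 7 were measured, and the 5 purine receptors among them were below the floor throughout. CGAS, the sensor that makes the ENPP1 substrate cGAMP, was at 9.38 on LACZ, 6.6 on FOXQ1, 7.6 on SNAI1, 8.01 on ZEB2 and 7.83 on TWIST1, and so lower on all 4 factor arrays and lowest on FOXQ1. STING1, the receptor of cGAMP, was called only on TWIST1, at 1.08, and not under quantile normalization (0.97) or at 3-fold.

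**Figure D4:**
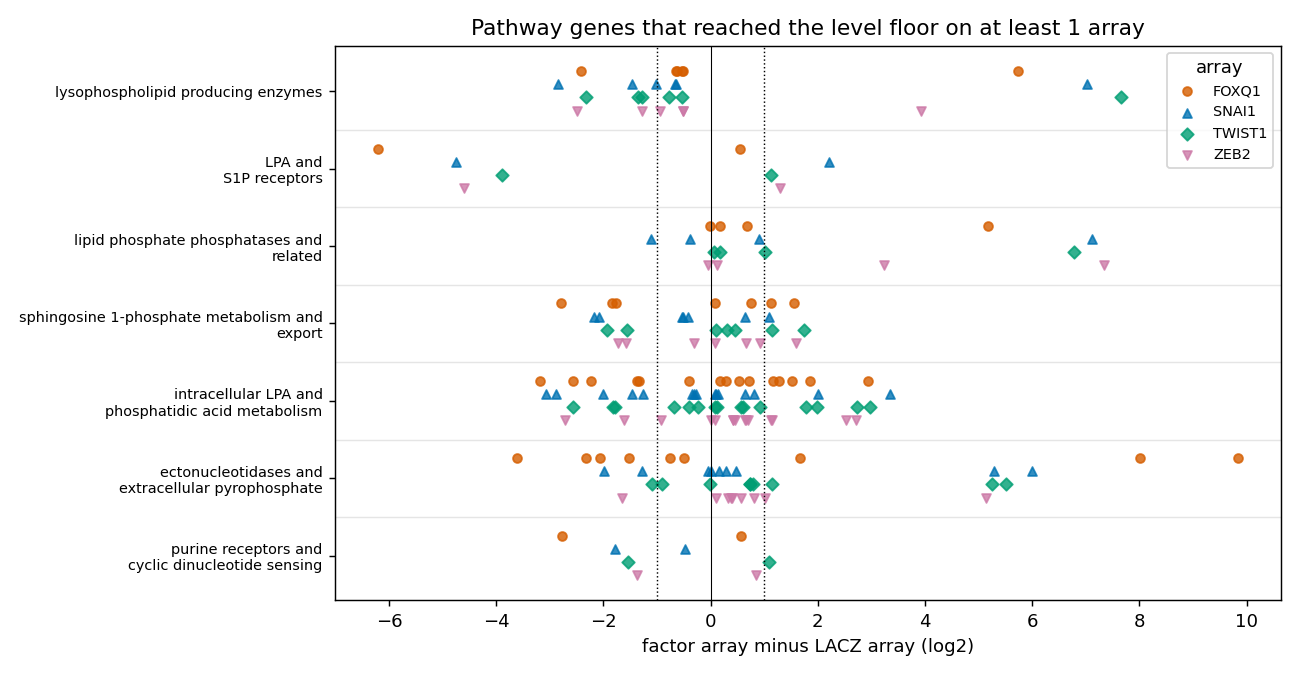
Difference of each factor array from LACZ (horizontal axis, log2) for the genes of the 7 pathway lists (rows) that reached the floor of 4.72 on at least 1 array; each point is 1 gene on 1 factor array and dotted lines mark 2-fold. The points far to the right are ENPP2, PLPP3, ENPP1 and AK5, the LPAR3 points stand far to the left, and most other genes lie within 3 of LACZ.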

How the data were processed

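RNA of 5 HMLE-derived lines was measured on Affymetrix arrays, 1 per line, and groups follow the sample titles. Per the submitters' processing notes the Transcriptome Analysis Console and hg38 were used; versions, settings and normalization are not given in the sources used here. A single table of 65521 probe sets was deposited, whose values (1.99 to 19.73) were taken as log2; no base is stated, so folds hold only if it is 2. The array medians, 4 to 4.05, were already on one scale. The number of arrays limits the precision.

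Identifiers covered chromosomes 1 to 8 and part of 9, and genes elsewhere were not analysed here. A platform annotation gave 16126 probe sets 1 symbol, 419 several and 48976 none. By gene ID or symbol 15760 matched RefSeq (GRCh38.p14), and 194 on another chromosome than their identifier were dropped, leaving 14912 genes. Each gene took its probe set with the highest mean. Calls needed 2-fold and the floor of 4.72. All members were named, with the pathway list genes that were called, the 3 nearest profiles of each called member and its called neighbours among the 3 on each side; neighbours not called were mostly counted. Members and lists were chosen with earlier results of these data known. Calling was tested on simulated data, with large changes, the same on every factor array, in genes well above the floor. That test did not cover calls near 2-fold, near the floor or on a single array. Alternatives were quantile, median and loess (span 0.3) normalization, other floors, 3-fold and 1.5-fold thresholds, the median of probe sets and calls shared by 3 arrays. Levels held at the floor and the PPAP2B probe set were added after seeing the data. Promoter sequences are those of RefSeq. The software was Python 3.11.15 with statsmodels 0.14.6, pandas 2.3.3, numpy 2.4.6 and matplotlib 3.10.9.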

Additional observations from a re-analysis of the deposited data

Results flagged for a closer look

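SLC29A1, a nucleoside transporter of the list of extracellular nucleotide genes, was called in opposite directions on different factor arrays. Its difference from LACZ was -2.07 on FOXQ1 and 1.01 on ZEB2, where the level was 9.51 and 12.59 against 11.58 on LACZ. The value on ZEB2 only just passed 2-fold and lost its call under quantile (0.91) and loess (0.98) normalization and at 3-fold, and with 1 array per line the difference between the arrays was not tested.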

How the results depend on the processing

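No paired analysis was possible because each line has 1 array, and leaving out a replicate was not possible for the same reason. Of 292 recomputed member differences, 278 kept their call and none of the called ones changed sign. With the floor at percentile 75, FOXQ1, SNAI1 and ZEB2 each had 1 lower member in place of 2, and members higher on all 4 arrays fell from 2 to 1, because ENPP2 on ZEB2 no longer passed. With levels below the floor set to the floor the lower members were again 1 on each of these arrays. The 3-fold threshold left 1 lower member on FOXQ1 and 1 on SNAI1, and 1 member that set a factor array apart (ENPP1, without LPAR3). S1PR1 lost its call on TWIST1 at this threshold and with the floor at percentile 75 and on ZEB2 at 3-fold. The 1.5-fold threshold gave 2 lower members on TWIST1, 2 lower on all 4 arrays and 4 that set an array apart, against 2. Without the TWIST1 array, 2 members were lower on the other 3. The lost and gained lower calls were those of ENPP5. Normalization and the median of probe sets changed no member call against LACZ, but under quantile normalization S1PR1 on SNAI1 (2.28) also stood at least 2-fold from each other factor array, so 3 members set an array apart. Over all settings ENPP2 ranged from 4.37 to 7.69 on TWIST1 and from 2.24 to 3.93 on ZEB2, and ENPP1 from 9.38 to 9.87 on FOXQ1. Signal over background was judged by the floor alone, which limits ENPP3, ENPP4, ENPP5 and the LACZ side of ENPP1 and ENPP2.

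The differences that gained or lost a call were, with the floor at percentile 75, ENPP2 on ZEB2 (3.93), S1PR1 on TWIST1 (1.13) and ENPP5 on FOXQ1 (-1.52), SNAI1 (-1.28) and ZEB2 (-1.66). At 3-fold they were ENPP5 on FOXQ1 (-1.52) and SNAI1 (-1.28) and S1PR1 on TWIST1 (1.13) and ZEB2 (1.3). At 1.5-fold ENPP1 on ZEB2 (0.8) and ENPP5 on TWIST1 (-0.91) were gained. With levels below the floor set to the floor ENPP5 was at -0.31 on each array where it had been called.

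Of 504 recomputed counts of called pathway list genes, 442 stayed within 1.5 times the reported count and 62 did not. With the floor at percentile 75, lower calls among lysophospholipid enzymes went to 0 on all 4 arrays, and the higher call on ZEB2 to 0. Lower calls in S1P metabolism went to 1 on FOXQ1 and 0 on the other 3, and those among nucleotide genes to 0 on SNAI1, ZEB2 and TWIST1. Enzymes of LPA inside the cell kept 2 higher on FOXQ1 and TWIST1 and 1 on SNAI1, with 3 lower on FOXQ1 and SNAI1 and 1 on ZEB2 and TWIST1, and the receptor called higher on TWIST1 went to 0. At 3-fold the lysophospholipid enzymes had 1 lower on SNAI1, ZEB2 and TWIST1, and the receptors 0 higher on ZEB2 and TWIST1. The phosphatases had 0 lower on SNAI1 and 1 higher on TWIST1. S1P metabolism had 0 higher on FOXQ1 and SNAI1, 1 higher on TWIST1 and 1 lower on ZEB2 and TWIST1. Enzymes of LPA inside the cell had 2 higher on FOXQ1 and ZEB2 and 3 lower on FOXQ1 and SNAI1. Nucleotide genes had 1 lower on SNAI1, 0 lower on TWIST1 and 1 higher on ZEB2, and purine receptors with dinucleotide sensing 0 lower on ZEB2 and TWIST1 and 0 higher on TWIST1. At 1.5-fold the lysophospholipid enzymes had 3 lower on FOXQ1 and 5 on SNAI1, the phosphatases 2 higher on each of these, S1P metabolism 2 higher on SNAI1 and 3 on ZEB2, and enzymes of LPA inside the cell 4 higher on SNAI1 and 7 on ZEB2. Nucleotide genes then had 6 higher and 2 lower on TWIST1, and dinucleotide sensing 1 higher on ZEB2. With levels below the floor set to the floor, lower calls in S1P metabolism were 1 on FOXQ1 and 0 on the other 3, and among nucleotide genes 1 on SNAI1 and 0 on ZEB2. Quantile and loess normalization each left 1 nucleotide gene higher on ZEB2, and quantile normalization 0 higher in dinucleotide sensing on TWIST1.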

Other observations

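Neighbours of the remaining called members also included genes with large differences. Near S1PR1, the glycosyltransferase EXTL2, 341.7 kb away, was higher on all 4 factor arrays, by 2.5, 2.4, 2.92 and 2.02 in the array order FOXQ1, SNAI1, TWIST1, ZEB2, while the other 5 neighbours were not called. Near ENPP5, the bone transcription factor RUNX2 was at 11.2 on LACZ, 11.18 on FOXQ1, 13.22 on SNAI1, 11.81 on ZEB2 and 13.54 on TWIST1. SLC25A27, a mitochondrial carrier 482 kb away, was lower on all 4, at -1.07 (FOXQ1), -1.43 (SNAI1), -1.18 (TWIST1) and -1.18 (ZEB2). None of these calls was left with the floor at percentile 75 or at 3-fold. Near ENPP2, the epithelial gene MAL2, 311.4 kb away, was at 17.39 on LACZ against 3.87 to 4.61 on the factor arrays, opposite in direction to ENPP2. DSCC1, a factor of sister chromatid cohesion, was lower on FOXQ1, SNAI1 and ZEB2 at -1.66, -1.24 and -1.53. TAF2, a subunit of the general transcription factor TFIID, was called on SNAI1 at -1.01 and on ZEB2 at -1.21, and the SNAI1 call was lost under quantile, median and loess normalization. CCN3, between MAL2 and ENPP2, was below the floor on all 5 arrays.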
